A study of Mus musculus with 14 samples.

Results

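The 32 genes described here encode the proteins that bring glucose into a cell, turn it into pyruvate and lactate and move lactate across the membrane, together with the gate into the mitochondrion and the response to low oxygen. They were chosen by gene symbol, with earlier results of these data known, so their shares beside all genes below are descriptions and not tests. All 32 were found among the 50508 gene symbols of both deposited tables of bulk RNA sequencing counts. By role, 2 are glucose transporters, 10 belong to upper and 6 to lower glycolysis, 4 are lactate dehydrogenases or lactate transporters, 2 sit at the pyruvate dehydrogenase gate and 8 belong to the hypoxia response.

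The study sorted mouse killer innate-like T cells that carry an αβ T cell receptor (ILTCk), and set them against conventional T cells in 5 groups of 2 libraries each. ILTCkP, the thymic progenitors of ILTCk, and CD8SP, conventional CD8 single-positive thymocytes, came from C57BL/6 mice. The NK1.1+ ILTCk, the NK1.1- ILTCk and the PD-1-bearing conventional T cells called PD1+ Tconv came from retrogenic mice, whose T cells develop from bone marrow precursors given a T cell receptor by retrovirus. The labels name neither that receptor nor the ages or any pooling of the mice. Their protocols give a tumour sort for CD45+, TCRβ+ and CD8α+ cells, in which NK1.1+ ILTCk were PD-1-negative and PD1+ Tconv were PD-1-positive and NK1.1-negative. No gate or tissue is stated for NK1.1- ILTCk. The sample characteristics call the ILTCk groups of the tumour table ILTCkP while the titles call them ILTCk, and the titles were followed. The 3 retrogenic groups share 1 table, called the tumour table below, and the thymic groups share the other. The study calls replicates biological without saying that they came from separate mice, so the p-values rest on how far these libraries differ, and that spread may be technical.

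Glycolysis splits glucose into pyruvate in the cytosol and yields ATP without oxygen. Pyruvate then enters the mitochondrion through the pyruvate dehydrogenase complex or becomes lactate, which leaves the cell through monocarboxylate transporters. When oxygen is scarce, prolyl hydroxylases no longer mark the transcription factor subunit HIF-1α for destruction, and HIF-1 raises many of these genes by binding DNA at a short core motif. T cells raise many of the same genes when they are activated, and resting T cells rely more on mitochondrial respiration.

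The libraries held 16530085 to 32097301 counts. In the thymic table the 6 B cell markers summed to 747 and 833 CPM in ILTCkP and 887 and 762 CPM in CD8SP. The 14 macrophage and monocyte markers summed to 43.0 and 31.2 CPM (counts scaled to a common library size) in ILTCkP and 27.8 and 24.8 CPM in CD8SP, and the macrophage gene Mrc1 was at 0 in all 4 libraries. Of the 8 macrophage and monocyte markers tested, 6 had positive and 2 negative fold changes, with a median log2 fold change of 0.98, and edgeR called none. Both ILTCkP libraries lay above both CD8SP libraries for 3 of the 8, or 37.5%, against 28.8% of all genes, and below them for 0, against 29.3%. The 10 αβ T cell markers summed to 8460 and 8128 CPM in ILTCkP and 15860 and 14220 CPM in CD8SP. All 10 had negative fold changes, and 2 fell at an edgeR adjusted p under 0.05, against 1.33% of all genes tested. Among them Cd3e, a subunit gene of the T cell receptor complex, was at 1335 and 1080 CPM in ILTCkP and 1291 and 1195 CPM in CD8SP. Cd8b1, which encodes the CD8β chain, was at 7.13 and 11.1 CPM in ILTCkP and 3043 and 2618 CPM in CD8SP. Some other lists stood higher in ILTCkP. The 7 neutrophil and mast cell markers summed to 218 and 295 CPM in ILTCkP and 29.4 and 31.0 CPM in CD8SP, of which Kit, a receptor gene also found in early thymocytes, made 206 and 292 CPM in ILTCkP and 12.9 and 16.3 CPM in CD8SP. The NK cell and ILC markers summed to 414 and 414 CPM in ILTCkP and 155 and 150 CPM in CD8SP, and the erythroid ones to 90.02 and 11.8 CPM in ILTCkP and 11.9 and 0.67 CPM in CD8SP. Their part in the thymic results below was not tested. The tumour table differed. Its 10 epithelial and mammary markers summed to 9270 and 10710 CPM in NK1.1+ ILTCk. They summed to 14850 and 11150 CPM in NK1.1- ILTCk and 3225 and 3941 CPM in PD1+ Tconv. Values for some other cell types are given further below. Levels below are CPM after TMM scaling within each table, and a level set beside one from the other table was scaled separately.

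The promoters of the members carry the short motif that HIF-1 binds more often than other promoters, which is shown here as sequence. The list was chosen to hold hypoxia targets, so a higher share could be foreseen and is no result of these libraries. A promoter window runs from 250 bases before to 50 bases after an annotated start, taken from RefSeq on build GRCm38.p6. It was found for 30 of the 32 members in 46 windows, and Slc2a3 and Bnip3l were not matched. The motifs searched were ACGTG and GCGTG on both strands, and CACGTG counts on both strands. Counting any window of a gene, at least 1 of them was found in 28 of the 30 members, and ACGTG in 21. The shares that follow were taken per window. Of member windows 80.4% held either motif, against 43.8% of all 32851 windows, and 54.3% held ACGTG, against 19.6% of all windows. Among windows with 15 or more CpG the shares were 84.4% of member windows and 71.4% of all windows for either motif, and 62.5% and 28.4% for ACGTG. The 6 windows below belong to the 4 members that passed the test between the thymic groups, to Aldoc, which had the smallest p of any member between the NK1.1- ILTCk and PD1+ Tconv groups, and to Ldha, whose transcript was the most abundant of the members. They run 5′ to 3′ on the strand of the gene, with the motifs in capitals, and for genes with several starts the window with the most motifs is shown.
Eno3 (chr11:70656926-70657225, + strand): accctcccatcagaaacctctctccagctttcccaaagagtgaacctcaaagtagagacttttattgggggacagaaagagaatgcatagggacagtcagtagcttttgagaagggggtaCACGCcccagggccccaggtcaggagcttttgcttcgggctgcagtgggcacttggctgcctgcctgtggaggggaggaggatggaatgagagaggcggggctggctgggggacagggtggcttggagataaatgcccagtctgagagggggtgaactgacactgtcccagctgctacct
Tpi1 (chr6:124814109-124814408, - strand): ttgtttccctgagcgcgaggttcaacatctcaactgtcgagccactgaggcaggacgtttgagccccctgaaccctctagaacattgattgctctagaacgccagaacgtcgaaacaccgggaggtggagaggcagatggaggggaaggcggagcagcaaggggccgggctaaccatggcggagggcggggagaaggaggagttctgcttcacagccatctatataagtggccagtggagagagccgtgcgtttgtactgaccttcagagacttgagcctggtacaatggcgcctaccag
Slc16a3 (chr11:120948817-120949116, + strand): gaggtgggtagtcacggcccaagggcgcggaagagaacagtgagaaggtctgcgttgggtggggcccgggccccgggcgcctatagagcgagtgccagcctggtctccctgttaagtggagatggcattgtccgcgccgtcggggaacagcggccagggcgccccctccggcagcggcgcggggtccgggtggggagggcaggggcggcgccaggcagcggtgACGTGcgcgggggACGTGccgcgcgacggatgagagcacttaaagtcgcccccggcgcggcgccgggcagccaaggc
Pdk1 (chr2:71872974-71873273, + strand): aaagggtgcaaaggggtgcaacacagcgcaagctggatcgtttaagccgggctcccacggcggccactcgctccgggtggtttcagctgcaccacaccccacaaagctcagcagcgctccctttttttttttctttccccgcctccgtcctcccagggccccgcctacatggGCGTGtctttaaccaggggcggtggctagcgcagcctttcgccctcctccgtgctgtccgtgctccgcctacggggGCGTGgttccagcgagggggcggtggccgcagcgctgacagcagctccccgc
Aldoc (chr11:78322823-78323122, + strand): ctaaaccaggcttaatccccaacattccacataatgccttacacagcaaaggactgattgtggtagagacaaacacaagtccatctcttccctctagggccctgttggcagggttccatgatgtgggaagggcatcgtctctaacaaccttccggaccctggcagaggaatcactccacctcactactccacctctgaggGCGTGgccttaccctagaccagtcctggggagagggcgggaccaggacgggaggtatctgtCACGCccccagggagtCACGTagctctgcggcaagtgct
Ldha (chr7:46845554-46845853, + strand): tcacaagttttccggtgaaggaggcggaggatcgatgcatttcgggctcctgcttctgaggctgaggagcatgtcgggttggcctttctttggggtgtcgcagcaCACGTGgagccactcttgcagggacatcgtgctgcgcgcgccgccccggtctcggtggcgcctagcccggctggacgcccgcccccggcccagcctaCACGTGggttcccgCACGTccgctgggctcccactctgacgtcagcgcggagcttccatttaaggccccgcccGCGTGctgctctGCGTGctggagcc
The Slc16a3 window held ACGTG 2 times just before the start, and the Ldha window held 5 matches of ACGTG and 2 of GCGTG. Eno3 had 1 match of GCGTG, Pdk1 had 2 and Aldoc had 1 match of ACGTG and 2 of GCGTG. The Tpi1 window held neither motif, nor did that of Gpi1. A match is a description of letters, and no match says only that these letters are not in this window.

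ILTCkP were first set against CD8SP, the conventional cells of the same organ. Eno3, Tpi1 and Slc16a3 rose in ILTCkP and Pdk1 fell. Eno3 encodes the muscle-type enolase, Tpi1 the triosephosphate isomerase that lets both products of the aldolase step go on down the pathway, and Slc16a3 the lactate exporter MCT4. Pdk1 encodes a kinase that switches off pyruvate dehydrogenase and so holds pyruvate back from the mitochondrion. Of the 31 members tested, 3 rose, against 3.38% of all 14634 genes tested, and 1 fell, against 1.33% of all genes. Vegfa, which encodes the vascular growth factor, was not tested: it had 0 and 4 counts in ILTCkP and 1 and 13 counts in CD8SP. Fold changes of members were positive in 25 and negative in 6, with a median log2 fold change of 0.60, against 0.01 over all genes tested. Both ILTCkP libraries lay above both CD8SP libraries for 17 members, or 54.8%, against 28.8% of all genes, and below them for 2 members, or 6.45%, against 29.3% of all genes. At an unadjusted p under 0.05 stood 15 members, or 48.4%, against 22.1% of all genes. The test limma-voom called the same 4 members, against 5.58% of all genes.

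**Figure D1:**
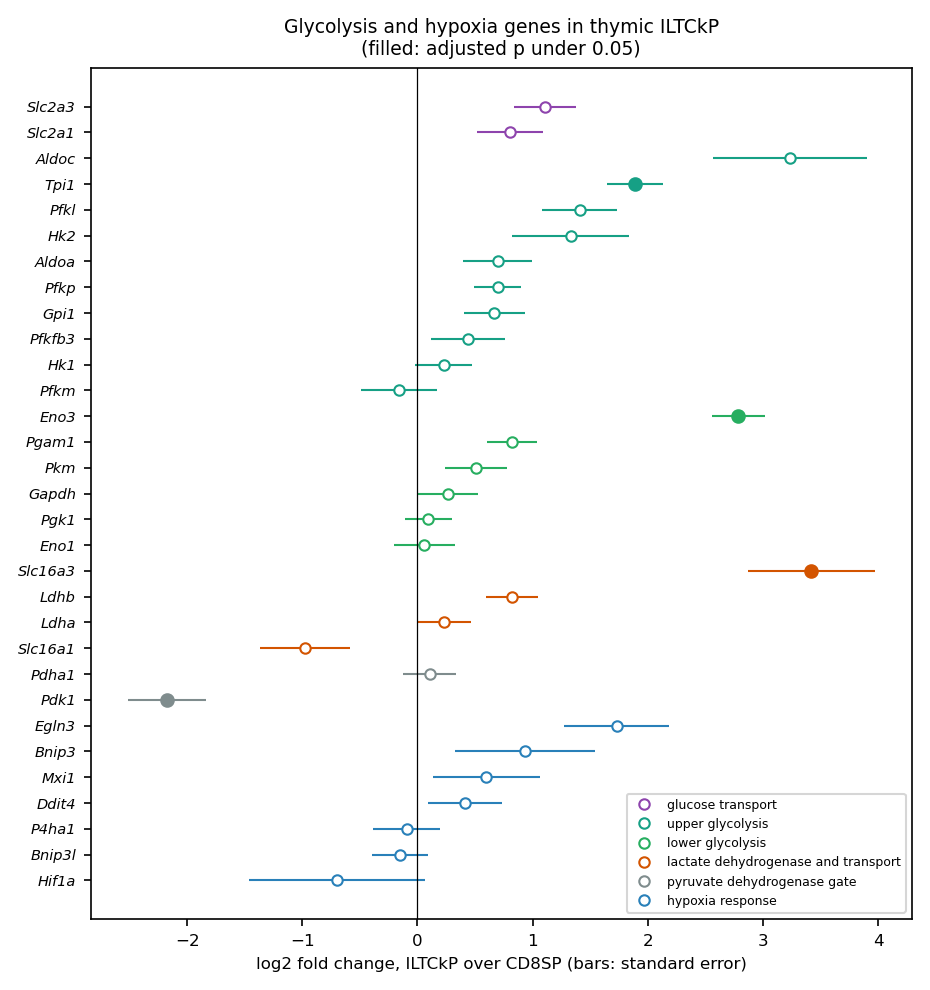
Log2 fold change of 31 members, ILTCkP over CD8SP (horizontal axis), with bars of 1 standard error, coloured by role. The filled points are Eno3, Tpi1 and Slc16a3 to the right of 0 and Pdk1 to the left, the 4 members with an edgeR adjusted p under 0.05.

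Eno3, on chromosome 11 at 70657202-70662513 (GENCODE M21, GRCm38), was at 276 and 242 CPM in ILTCkP and 39.4 and 35.8 CPM in CD8SP. The groups were far apart and the replicates of each lay close together. The log2 fold change was 2.79 ± 0.23 (SE, n = 2 each, edgeR adjusted p = 0.00626). In the tumour table Eno3 stood at 4.56 to 13.0 CPM in all 6 libraries. Eno3 is known for skeletal muscle, so the muscle markers are given beside it: the 8 summed to 24.6 and 18.8 CPM in ILTCkP and 20.6 and 16.2 CPM in CD8SP. Myh1, a myosin of fast muscle, was at 0 in all 4 thymic libraries, and Ckm, the muscle creatine kinase, was at 15.4 and 9.32 CPM in ILTCkP and 1.17 and 0.06 CPM in CD8SP. The list did not move together: of the 3 muscle markers tested, 1 had a positive and 2 had negative fold changes. Both ILTCkP libraries lay above both CD8SP libraries for 1, against 28.8% of all genes, and below them for 2, against 29.3%. None of the 3 was called by edgeR.

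Among enolases the isozyme make-up differed as well. Per length of transcript, Eno3 made 27.4% and 33.6% of the Eno1 and Eno3 signal in ILTCkP and 6.10% and 6.07% in CD8SP. Eno1, the enolase of most tissues, was at 2264 and 1480 CPM in ILTCkP and 1876 and 1716 CPM in CD8SP, so its groups overlapped. The Eno3 share is smaller when taken over coding length or without division by length, as given in the closing section.

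Tpi1, on chromosome 6 at 124810586-124814296, was at 968 and 704 CPM in ILTCkP and 235 and 216 CPM in CD8SP. Each ILTCkP library exceeded each CD8SP library. The log2 fold change was 1.89 ± 0.25 (SE, edgeR adjusted p = 0.0161). The neighbouring steps of glycolysis did not pass: Aldoa, the main aldolase gene, had a log2 fold change of 0.70 ± 0.30 (SE, edgeR adjusted p = 0.248), and Gapdh, the next enzyme after the isomerase, 0.26 ± 0.26 (edgeR adjusted p = 0.598). Gapdh has 90 near-identical annotated copies, of which 88 have counts listed here. These 88 took 30.9% to 38.3% of the counts of Gapdh and its copies together, so the level of Gapdh is uncertain.

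Slc16a3, on chromosome 11 at 120948480-120960868, was at 105 and 39.2 CPM in ILTCkP and 5.86 and 7.59 CPM in CD8SP. The ILTCkP libraries differed between themselves, with replicate 1 the higher, yet both lay above CD8SP. Its log2 fold change was 3.42 ± 0.55 (SE, edgeR adjusted p = 0.0298), and without ILTCkP replicate 1 it was 2.55. Slc16a1, the gene of the transporter MCT1 that carries lactate either way, was at 44.5 and 97.4 CPM in ILTCkP and 133 and 147 CPM in CD8SP. Its values did not overlap and ran the other way, with a log2 fold change of -0.98 ± 0.39 (SE, edgeR adjusted p = 0.224). Slc16a3 made 66.3% and 25.1% of the signal of the pair per length in ILTCkP and 3.55% and 4.13% in CD8SP.

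Pdk1, on chromosome 2 at 71873224-71903858, was at 13.2 and 20.0 CPM in ILTCkP and 64.7 and 85.2 CPM in CD8SP. Both ILTCkP libraries were low. The log2 fold change was -2.17 ± 0.34 (SE, edgeR adjusted p = 0.0281), and the call was lost without CD8SP replicate 2 (-1.96, edgeR adjusted p = 0.0764). Pdha1, which encodes the catalytic subunit that Pdk1 acts on, was at 155 and 200 CPM in ILTCkP and 170 and 159.5 CPM in CD8SP, and the groups overlapped. It shares 603 exonic bases with Map3k15 on the opposite strand, which held at most 78 counts in a library. Of 12 tested genes of pyruvate entry on a separate list, 1 rose and none fell: Slc16a7, a pyruvate and lactate transporter gene, was at 2.52 and 3.49 CPM in ILTCkP and 0.17 and 0.03 CPM in CD8SP (edgeR adjusted p = 0.0491).

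Other members of upper glycolysis and glucose uptake were higher in both ILTCkP libraries without passing in edgeR. Aldoc, an aldolase gene best known from brain, was at 18.2 and 7.11 CPM in ILTCkP and 1.79 and 0.89 CPM in CD8SP, with a log2 fold change of 3.24 ± 0.67 (SE, edgeR adjusted p = 0.0586). With single libraries left out its log2 fold change ranged from 2.42 to 3.85. Pfkl, the liver-type phosphofructokinase gene of the committing step, was at 485 and 282 CPM in ILTCkP and 162 and 127 CPM in CD8SP (1.41 ± 0.32 SE, edgeR adjusted p = 0.0750). The groups did not overlap for either gene. Slc2a3, which encodes the high-affinity glucose transporter GLUT3, was at 185 and 126 CPM in ILTCkP and 71.0 and 73.1 CPM in CD8SP (1.11 ± 0.27 SE, edgeR adjusted p = 0.0826). Slc2a1, the gene of the general transporter GLUT1, was at 181 and 117 CPM in ILTCkP and 92.4 and 78.6 CPM in CD8SP (0.80 ± 0.29 SE, edgeR adjusted p = 0.183). Hk2, the inducible hexokinase gene, was at 14.3 and 8.37 CPM in ILTCkP and 5.90 and 3.10 CPM in CD8SP (1.33 ± 0.51 SE, edgeR adjusted p = 0.207). These 3 genes were also higher in each ILTCkP library than in each CD8SP library. Of the 10 upper glycolysis members 9 had positive fold changes, and Pfkm, the muscle-type phosphofructokinase gene, was the exception at -0.16.

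DESeq2, another count test, called 10 members on the same counts, against 13.6% of all genes: the 4 above and Aldoc, Pfkl, Slc2a3, Pgam1, Ldhb and Egln3. Pgam1, the phosphoglycerate mutase gene, was at 152 and 133 CPM in ILTCkP and 83.1 and 77.9 CPM in CD8SP, and Ldhb, the heart-type lactate dehydrogenase gene, at 122 and 114 CPM in ILTCkP and 71.7 and 62.1 CPM in CD8SP. Both were higher in each ILTCkP library. Egln3, a prolyl hydroxylase gene that HIF itself raises, was at 14.8 and 27.95 CPM in ILTCkP and 7.65 and 5.25 CPM in CD8SP, with log2 fold change 1.73 ± 0.46 (SE, edgeR adjusted p = 0.101).

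Some abundant members differed little. Ldha, which encodes the lactate dehydrogenase that makes lactate from pyruvate, was at 3008 and 2244 CPM in ILTCkP and 2311 and 2164 CPM in CD8SP, and these groups overlapped (0.23 ± 0.23 SE, edgeR adjusted p = 0.595). Pgk1, the phosphoglycerate kinase gene, had a log2 fold change of 0.09 and Eno1 one of 0.06. Per kilobase of exon, Ldha ranked first among the members in all 5 groups, at a mean of 793 CPM per kb in ILTCkP and 676 CPM per kb in CD8SP. Eno3 ranked 6th in ILTCkP (149 CPM per kb) and 18th in CD8SP (21.6 CPM per kb).

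None of the remaining members of glycolysis passed. Gpi1, the isomerase gene of the second step, was at 788 and 538 CPM in ILTCkP and 455 and 380 CPM in CD8SP, and Pfkp, the platelet-type phosphofructokinase gene, at 516 and 458 CPM in ILTCkP and 314 and 287 CPM in CD8SP. Both were higher in each ILTCkP library without passing in edgeR (adjusted p = 0.216 and 0.122). Pfkp shares 748 exonic bases with Pitrm1 on the opposite strand, and since no source states that counting used strand, its level is uncertain. Pkm, the pyruvate kinase gene of the last step, was at 3169 and 2032 CPM in ILTCkP and 1888 and 1775 CPM in CD8SP, and Hk1, the hexokinase gene of most tissues, at 375 and 266 CPM in ILTCkP and 283 and 265 CPM in CD8SP. The ILTCkP libraries lay above CD8SP for Pkm and overlapped it for Hk1. Pfkfb3, whose product makes the activator of phosphofructokinase, had a log2 fold change of 0.44.

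The hypoxia members did not move together in the thymus. Of the 7 tested, 4 had positive and 3 negative fold changes, and edgeR called none of them. At an unadjusted p under 0.05 stood 1 of them, or 14.3%, against 22.1% of all genes. DESeq2 called Egln3, against 13.6% of all genes. Hif1a, which encodes HIF-1α, was at 14.2 and 86.7 CPM in ILTCkP and 72.2 and 91.9 CPM in CD8SP. ILTCkP replicate 1 stood apart and replicate 2 lay within the CD8SP values. The log2 fold change was -0.70 ± 0.76 (SE, edgeR adjusted p = 0.630). Without ILTCkP replicate 1 it was 0.09, and without ILTCkP replicate 2 it was -2.53. Replicate 1 had the higher level in 20 of the 22 members of glucose transport, glycolysis and lactate in ILTCkP and in 18 of them in CD8SP. Of the 8 hypoxia members replicate 2 had the higher level in 7 in ILTCkP and in 4 in CD8SP. The order of replicates was not counted over all genes, so these counts are no result about the members. Bnip3, whose product marks mitochondria for removal in hypoxia, was at 5.36 and 15.8 CPM in ILTCkP and 6.76 and 4.30 CPM in CD8SP, so that only replicate 2 lay above CD8SP. Ddit4, whose product restrains mTORC1 under stress, had a log2 fold change of 0.41, and Mxi1, a MYC antagonist gene, one of 0.60. Bnip3l, the relative of Bnip3, was at -0.15 and P4ha1, a collagen prolyl hydroxylase gene, at -0.09. A near-identical annotated copy of Bnip3l took 7.63% to 17.7% of the counts of the pair, so its level is uncertain.

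Lists of related genes gave a wider view of the thymic comparison, in which 3.38% of all genes tested rose and 1.33% fell. Of 27 tested hypoxia targets on a separate list, 10 had positive and 17 negative fold changes, and the median log2 fold change was -0.21, against 0.01 over all genes. Both ILTCkP libraries lay above both CD8SP libraries for 9 of them, or 33.3%, against 28.8% of all genes. They lay below for 10, or 37.0%, against 29.3% of all genes. By edgeR 5 of the 27 rose and none fell. Anxa2, which encodes annexin A2, a membrane-binding protein, was at 1507 and 1415 CPM in ILTCkP and 131 and 118 CPM in CD8SP (3.55 ± 0.22 SE, edgeR adjusted p = 0.00329). Plin2, the gene of a lipid droplet coat protein, had a log2 fold change of 2.02 ± 0.38 (SE, edgeR adjusted p = 0.0460) and Plod1, a collagen lysyl hydroxylase gene, 1.66 ± 0.32 (SE, edgeR adjusted p = 0.0462). The other two were Slc2a6, given below, and Ak4, a mitochondrial adenylate kinase gene at 1.22 and 4.20 CPM in ILTCkP and 0 in both CD8SP libraries. Of 6 tested genes of other glucose transporters and hexokinases 2 rose and none fell: Slc2a6, at 20.5 and 6.56 CPM in ILTCkP and 0.38 and 0.48 CPM in CD8SP, and Slc2a10, at 4.22 and 6.10 CPM in ILTCkP and 0 in both CD8SP libraries.

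Of 9 tested genes of gluconeogenesis and glycogen 2 rose and none fell, and both encode glycogen phosphorylases, which release glucose units from glycogen. Pygl was at 14.3 and 21.8 CPM in ILTCkP and 3.03 and 3.29 CPM in CD8SP (2.52 ± 0.40 SE, edgeR adjusted p = 0.0283), and Pygb at 354 and 288 CPM in ILTCkP and 152 and 142 CPM in CD8SP (1.13 ± 0.22 SE, edgeR adjusted p = 0.0477). Pygm, the muscle glycogen phosphorylase gene, was at 1.14 and 18.5 CPM in ILTCkP and 18.1 and 13.6 CPM in CD8SP, and its groups overlapped. Of 12 other glycolytic enzyme genes 1 rose and none fell: Pgm2l1, a glucose bisphosphate synthase gene, at 16.6 and 20.2 CPM in ILTCkP and 4.86 and 5.54 CPM in CD8SP. None of 8 pentose phosphate genes and none of 11 HIF pathway regulators was called by edgeR. At an unadjusted p under 0.05 stood 2 and 3 of them, or 25.0% and 27.3%, against 22.1% of all genes. Of 19 MYC and mTORC1 nutrient genes 1 rose and 1 fell: Sesn2, a stress-induced inhibitor of mTORC1, at 70.3 and 57.7 CPM in ILTCkP and 11.6 and 11.4 CPM in CD8SP (edgeR adjusted p = 0.0121), and Txnip, whose product limits glucose uptake, at 320 and 275 CPM in ILTCkP and 695 and 690 CPM in CD8SP (edgeR adjusted p = 0.0330). Of 20 cell cycle genes none rose and 1 fell, Top2a, a DNA topoisomerase gene of dividing cells (-1.54 ± 0.26 SE, edgeR adjusted p = 0.0334), and the list's median was -0.38.

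**Figure D2:**
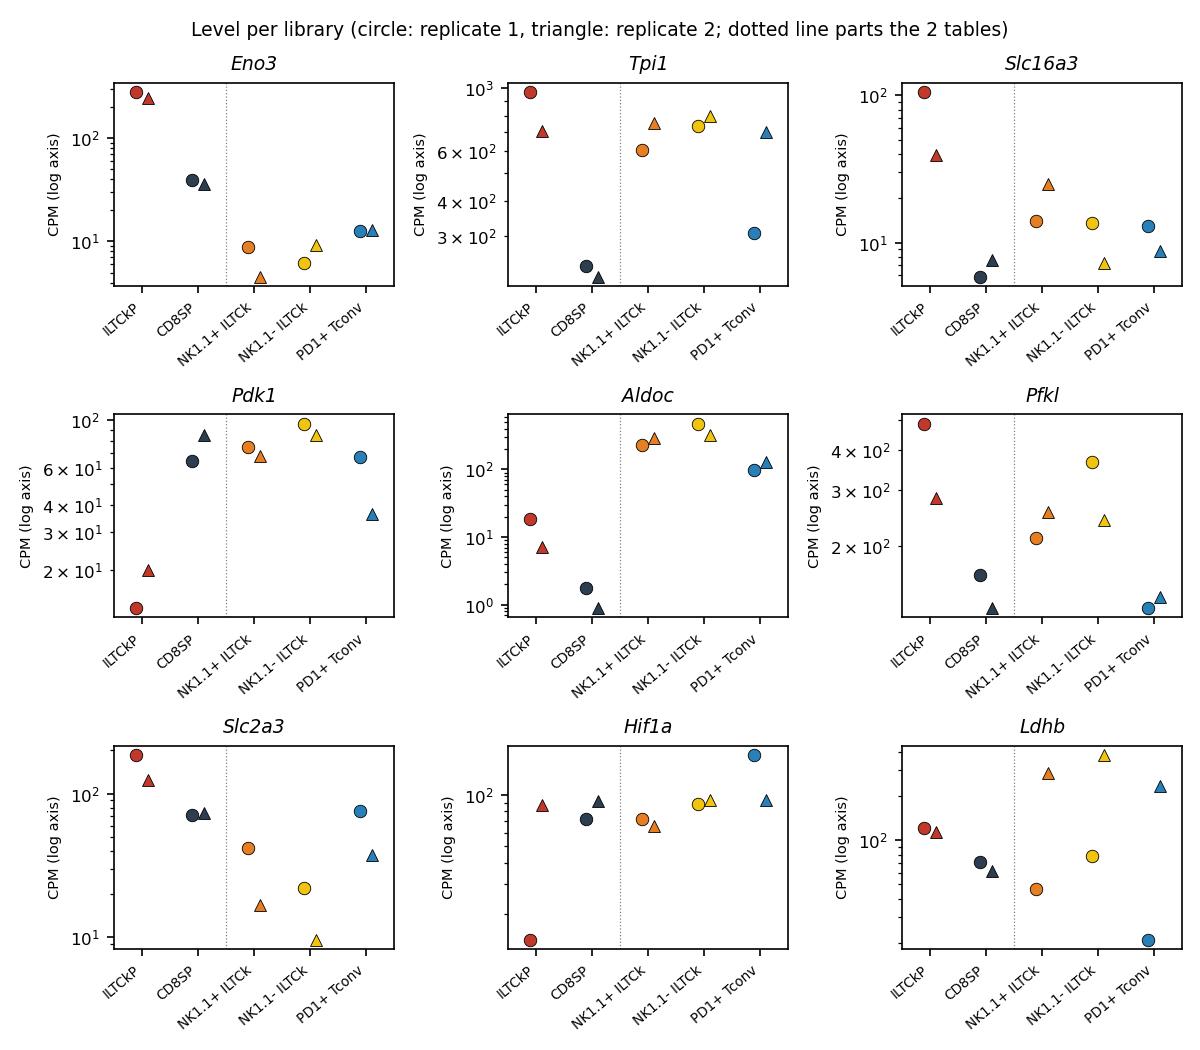
CPM of 9 members in the 10 libraries, each panel on its own log axis, with circles for replicate 1 and triangles for replicate 2. Eno3 stood at 242 and 276 CPM in ILTCkP and below 40 CPM elsewhere, Aldoc was highest in the tumour table, and Ldhb was higher in replicate 2 than in replicate 1 of all 3 tumour groups.

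In the tumour table each ILTCk group was set against PD1+ Tconv. No member passed in edgeR in either, which called 0% of 18091 genes in each. For NK1.1+ ILTCk 1 member had an unadjusted p under 0.05, against 14.3% of all genes, and DESeq2 (7.01% of all genes) and limma-voom (0.0166% of all genes) called none. For NK1.1- ILTCk 4 members had an unadjusted p under 0.05, against 11.9% of all genes, DESeq2 called 1, against 3.91% of all genes, and limma-voom none. The median log2 fold change of the 32 members was 0.39 for NK1.1+ ILTCk, against -0.04 over all genes, and 0.25 for NK1.1- ILTCk, against -0.04 over all genes. Fold changes were positive in 22 members for NK1.1+ ILTCk and in 23 for NK1.1- ILTCk. These comparisons share the PD1+ Tconv libraries. Both NK1.1+ ILTCk libraries lay above both PD1+ Tconv libraries for 13 members, against 20.7% of all genes, and below for 4, against 20.8%. For NK1.1- ILTCk these counts were 13, against 23.1% of all genes, and 3, against 22.7%.

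**Figure D3:**
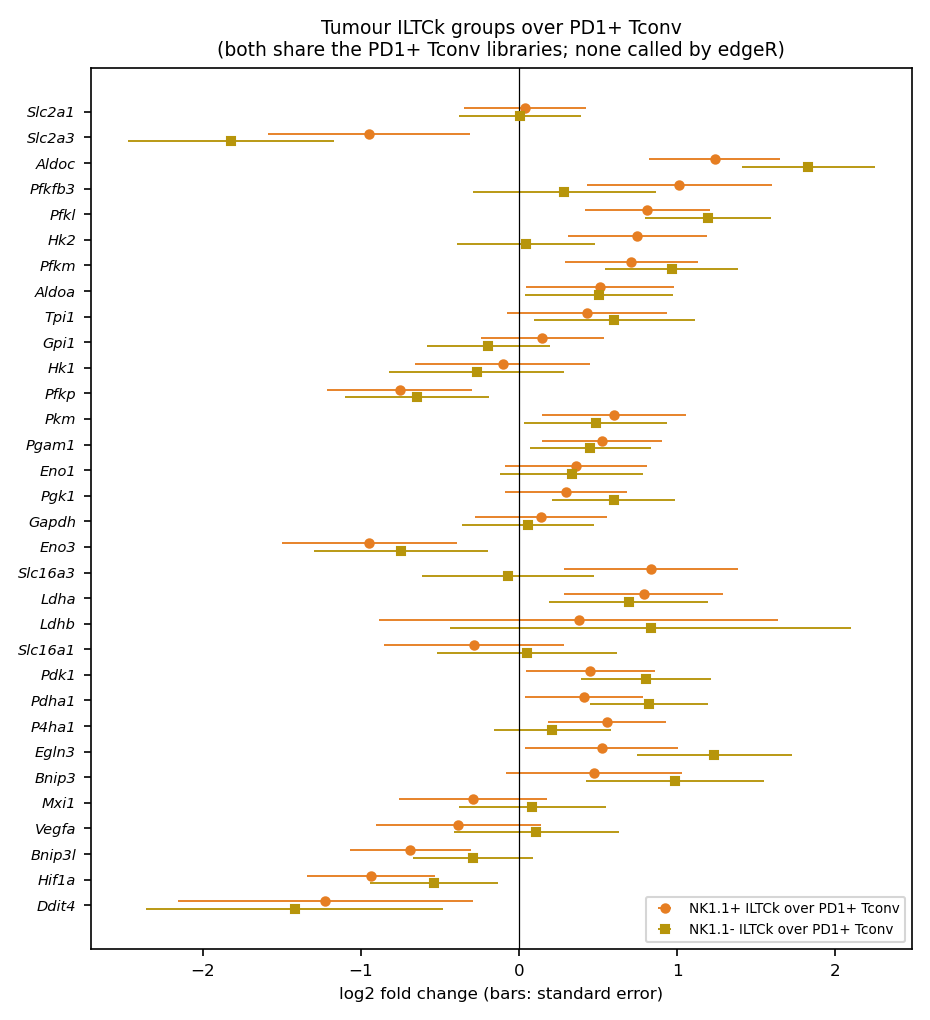
Log2 fold change of the 32 members in NK1.1+ ILTCk (circles) and NK1.1- ILTCk (squares) over PD1+ Tconv, with bars of 1 standard error, ordered by role. Aldoc has the highest values, at 1.24 and 1.83, and Slc2a3 the lowest value, at -1.82 in NK1.1- ILTCk.

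Aldoc had the smallest p of the members in both comparisons. It was at 234 and 293 CPM in NK1.1+ ILTCk, 474 and 320 CPM in NK1.1- ILTCk and 96.7 and 127 CPM in PD1+ Tconv. All 4 ILTCk libraries lay above both PD1+ Tconv libraries. The log2 fold change was 1.24 ± 0.41 for NK1.1+ ILTCk (SE, edgeR adjusted p = 0.265, DESeq2 adjusted p = 0.0722) and 1.83 ± 0.42 for NK1.1- ILTCk (SE, edgeR adjusted p = 0.344, DESeq2 adjusted p = 0.00364). Per length it made 7.58% to 20.6% of the aldolase signal in the 6 tumour libraries and at most 1.57% in the thymic ones, shares taken within each library.

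Pfkl was at 211 and 256 CPM in NK1.1+ ILTCk, 368 and 242 CPM in NK1.1- ILTCk and 128 and 139 CPM in PD1+ Tconv. The groups did not overlap, with log2 fold changes of 0.81 ± 0.40 (SE, edgeR adjusted p = 0.410) and 1.20 ± 0.40 (SE, edgeR adjusted p = 0.368). Pfkp, the platelet-type isozyme gene, was at 140 and 97.4 CPM in NK1.1+ ILTCk, 158 and 98.9 CPM in NK1.1- ILTCk and 252 and 149 CPM in PD1+ Tconv. Of the phosphofructokinase signal per length, Pfkl made 66.1% to 73.2% in the 4 ILTCk libraries and 45.9% and 57.9% in PD1+ Tconv.

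Egln3 was at 62.9 and 90.1 CPM in NK1.1+ ILTCk, 134 and 117 CPM in NK1.1- ILTCk and 31.8 and 74.8 CPM in PD1+ Tconv. NK1.1- ILTCk lay above PD1+ Tconv (1.24 ± 0.49 SE, edgeR adjusted p = 0.403, 0.76 to 1.97 with single libraries left out), while NK1.1+ ILTCk overlapped it. Ldha was at 1936 and 2788 CPM in NK1.1+ ILTCk, 1977 and 2445 CPM in NK1.1- ILTCk and 1048 and 1685 CPM in PD1+ Tconv, higher in each ILTCk library (0.79 ± 0.50 and 0.70 ± 0.50 SE, edgeR adjusted p = 0.535 and 0.610).

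Some members ran the other way. Slc2a3 was at 41.6 and 16.8 CPM in NK1.1+ ILTCk, 22.2 and 9.63 CPM in NK1.1- ILTCk and 75.3 and 37.4 CPM in PD1+ Tconv. The NK1.1- libraries lay below both PD1+ Tconv libraries and the NK1.1+ libraries overlapped them, with log2 fold changes of -1.82 ± 0.65 for NK1.1- ILTCk (SE, edgeR adjusted p = 0.386, -2.55 to -1.21 with single libraries left out) and -0.95 ± 0.64 for NK1.1+ ILTCk (SE, edgeR adjusted p = 0.558). Slc2a1 showed no such difference, at 92.5 and 126 CPM in NK1.1+ ILTCk, 111 and 103 CPM in NK1.1- ILTCk and 84.9 and 128 CPM in PD1+ Tconv. Hif1a was at 72.4 and 65.4 CPM in NK1.1+ ILTCk, 88.8 and 93.1 CPM in NK1.1- ILTCk and 170 and 93.6 CPM in PD1+ Tconv. It was lower in every ILTCk library (-0.94 ± 0.41 and -0.54 ± 0.40 SE, edgeR adjusted p = 0.359 and 0.624). The nearest NK1.1- ILTCk and PD1+ Tconv libraries were almost equal. With single libraries left out the fold change was -1.34 to -0.42 for NK1.1+ ILTCk and -0.92 to -0.025 for NK1.1- ILTCk. On the list of HIF pathway regulators, which holds Hif1a, the 11 tested genes had a median of -0.81 for NK1.1+ ILTCk, with 7 negative, and of -0.74 for NK1.1- ILTCk, with all 11 negative and none called.

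Ldhb differed more between replicates than between groups. It was at 46.3 and 288 CPM in NK1.1+ ILTCk, 78.0 and 380 CPM in NK1.1- ILTCk and 20.99 and 236 CPM in PD1+ Tconv, so replicate 2 was the higher in all 3 groups. Its share of the lactate dehydrogenase signal per length was 17.9% to 24.7% in the replicate 2 libraries and 4.05% to 7.68% in the replicate 1 libraries. Tpi1 was at 605 and 756 CPM in NK1.1+ ILTCk, 736 and 796 CPM in NK1.1- ILTCk and 308 and 700 CPM in PD1+ Tconv, where replicate 1 alone was low. NK1.1- ILTCk lay above both PD1+ Tconv libraries and NK1.1+ ILTCk overlapped them. Vegfa, untested in the thymus, was at 21.7 and 31.0 CPM in NK1.1+ ILTCk, 37.0 and 37.1 CPM in NK1.1- ILTCk and 18.7 and 50.02 CPM in PD1+ Tconv, and the groups overlapped.

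In both comparisons the ILTCk libraries also lay above both PD1+ Tconv libraries for Aldoa, Pfkm, Pgk1, Pgam1, Pkm, Pdha1 and Pdk1, with log2 fold changes of 0.30 to 0.71 for NK1.1+ ILTCk and 0.45 to 0.97 for NK1.1- ILTCk, none called by edgeR, DESeq2 or limma-voom. For Pdk1 the nearest NK1.1+ ILTCk and PD1+ Tconv libraries were almost equal. Hk2 was at 30.7 and 35.7 CPM in NK1.1+ ILTCk, 21.1 and 19.6 CPM in NK1.1- ILTCk and 13.9 and 25.7 CPM in PD1+ Tconv, and NK1.1+ ILTCk alone lay above PD1+ Tconv (0.75 ± 0.44 SE, edgeR adjusted p = 0.493). Ddit4 was at 2.06 and 8.26 CPM in NK1.1+ ILTCk, 4.13 and 4.88 CPM in NK1.1- ILTCk and 20.0 and 3.97 CPM in PD1+ Tconv, where replicate 1 stood apart. Bnip3 was at 31.2 and 44.5 CPM in NK1.1+ ILTCk, 40.0 and 67.9 CPM in NK1.1- ILTCk and 14.8 and 39.7 CPM in PD1+ Tconv. NK1.1- ILTCk lay just above PD1+ Tconv for Bnip3, and NK1.1+ ILTCk overlapped it. On the separate list of hypoxia targets the 33 tested genes had a median of 0.21 for NK1.1+ ILTCk and 0.43 for NK1.1- ILTCk. None of them was called by edgeR. At an unadjusted p under 0.05 stood 6 for NK1.1+ ILTCk, or 18.2%, against 14.3% of all genes. For NK1.1- ILTCk there were 3, or 9.09%, against 11.9% of all genes.

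**Figure D4:**
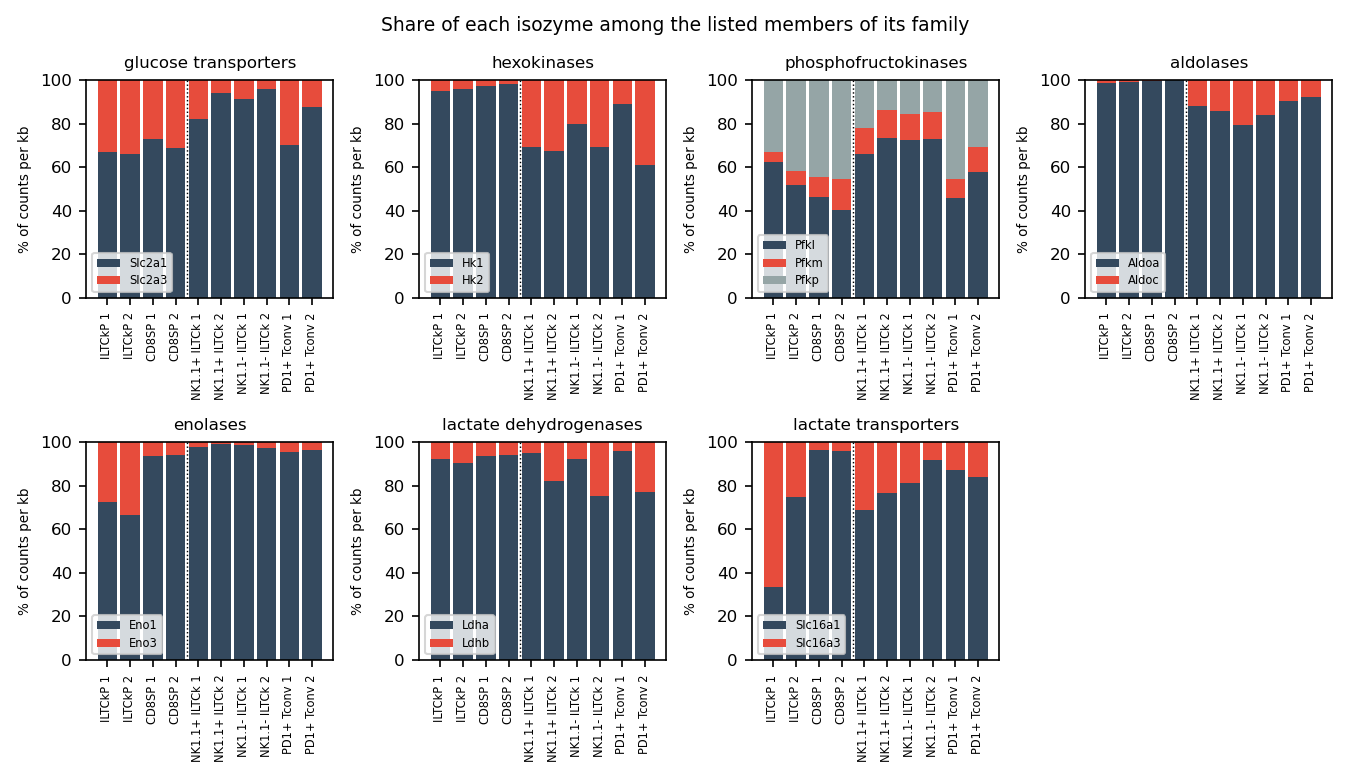
Share of each isozyme in the counts per kb of its family (vertical axis, percent) in each of the 10 libraries, for 7 families. Eno3 made 27.4% and 33.6% of the enolase bars in ILTCkP, Slc16a3 was largest in ILTCkP replicate 1 at 66.3%, and Ldhb was larger in the replicate 2 tumour libraries.

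Transcripts of other cells moved with these groups in the tumour table. The 14 macrophage and monocyte markers, all above 0 in every tumour library, summed to 9316 and 25310 CPM in NK1.1+ ILTCk, 4008 and 3774 CPM in NK1.1- ILTCk and 250 and 1520 CPM in PD1+ Tconv. The 10 αβ T cell markers summed to 4596 and 920 CPM in NK1.1+ ILTCk, 2505 and 1830 CPM in NK1.1- ILTCk and 7883 and 5618 CPM in PD1+ Tconv. The 9 dendritic cell and MHC class II markers summed to 14890 and 9331 CPM in NK1.1+ ILTCk. They summed to 5746 and 2299 CPM in NK1.1- ILTCk and 452 and 1048 CPM in PD1+ Tconv. Each of these sets put the ILTCk and PD1+ Tconv libraries apart without overlap. Markers of salivary and lacrimal gland summed to 1288 and 11300 CPM in NK1.1+ ILTCk, 41270 and 10490 CPM in NK1.1- ILTCk and 1425 and 296100 CPM in PD1+ Tconv. The highest sum lay in replicate 2 of PD1+ Tconv and the next in replicate 1 of NK1.1- ILTCk. The part of these transcripts in the tumour values above was not tested. In bulk samples fewer cells of a type and less RNA per cell cannot be told apart.

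**Figure D5:**
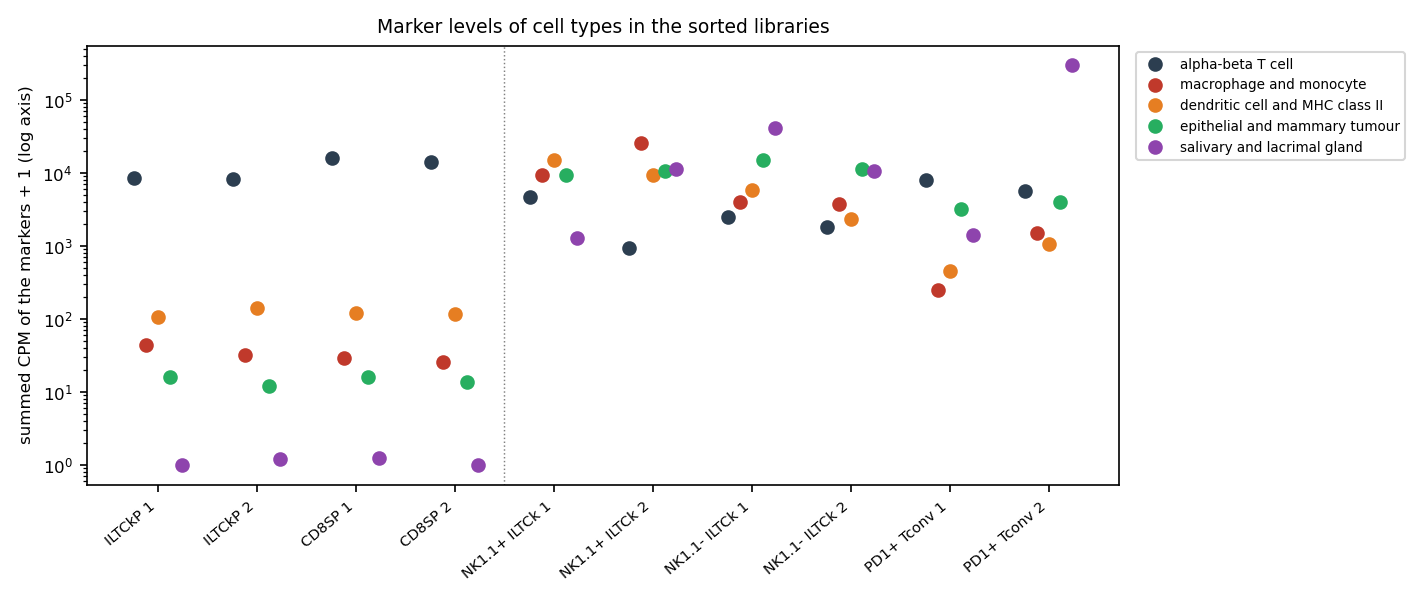
Summed CPM plus 1 (log axis) of 5 marker lists in each of the 10 libraries. In the 4 thymic libraries on the left only the αβ T cell markers exceed 200 CPM, while in the 6 tumour libraries the lowest sum is 250 CPM, of the macrophage markers in PD1+ Tconv replicate 1.

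NK1.1+ ILTCk and NK1.1- ILTCk were also set against each other. edgeR called none of the 32 members and 0% of all genes, both groups' libraries parted for 4 members upward (18.6% of all genes) and 7 downward (18.9% of all genes), no member had an unadjusted p under 0.05 (3.94% of all genes), and DESeq2 (0.315% of all genes) and limma-voom called no member. The median log2 fold change of the members was -0.14, against 0.01 over all genes, with 15 positive and 17 negative. The member with the smallest p was Slc16a3, at 13.99 and 24.9 CPM in NK1.1+ ILTCk and 13.5 and 7.25 CPM in NK1.1- ILTCk (0.91 ± 0.55 SE, edgeR adjusted p = 1.00). The groups did not overlap, though the nearest libraries were almost equal. Missing the threshold does not show that the groups were alike: the standard errors of members in this comparison ranged up to 1.26, for Ldhb.

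The last comparison tested whether the difference between ILTCk and conventional cells itself differed between tumour and thymus, as the log2 fold change of NK1.1+ ILTCk over PD1+ Tconv minus that of ILTCkP over CD8SP. Eno3, which was lower, was the 1 member called of 32, against 0.457% of 19488 genes called lower and 0.611% called in either direction. Its contrast was -3.60 ± 0.52 (SE, edgeR adjusted p = 0.0217), beside fold changes within each table of -0.95 in the tumour table and 2.79 in the thymic one. In the tumour table it stood at 8.76 and 4.56 CPM in NK1.1+ ILTCk and 12.7 and 13.0 CPM in PD1+ Tconv. The call was lost without CD8SP replicate 1 (edgeR adjusted p = 0.106), CD8SP replicate 2 (0.119), ILTCkP replicate 1 (0.0844), ILTCkP replicate 2 (0.0514) or NK1.1+ ILTCk replicate 2 (0.0656). Pdk1 was next, at 2.77 ± 0.55 (SE, edgeR adjusted p = 0.0617). It stood at 74.5 and 67.7 CPM in NK1.1+ ILTCk and 67.4 and 36.4 CPM in PD1+ Tconv, where its groups lay close and ran opposite to the thymus, and DESeq2 called it (adjusted p = 0.000201) along with Eno3, against 4.6% of all genes. Tissue, mouse model and table change together between the thymic and tumour libraries, so their parts cannot be told apart.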

How the data were processed

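Whole-number read counts per gene, deposited by the authors in 2 tables, were used for 10 bulk libraries, and 4 single-cell libraries were not analysed. The build mm10 and the tool DESeq are named in the submitters' processing notes, with no aligner or counter named in the sources used here. Counts summed over symbols that start with mt-, the prefix of mitochondrial genes, were 0 in every library. That sum does not tell genes missing from the tables from genes without counts.

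Each table was filtered with filterByExpr, scaled with TMM and tested with edgeR 4.0.16 (glmQLFit with robust estimation, glmQLFTest, R 4.3.3), with Benjamini-Hochberg adjustment over all genes tested and a call at an adjusted p under 0.05. All 6 tumour libraries entered 1 fit, and the contrast between tables used all 10 libraries. Alternatives were DESeq2 1.42.0, limma-voom (limma 3.58.1), RLE and upper-quartile scaling, no filter, at least 50 counts in 2 libraries, a replicate block, each library left out and, added after seeing the data, counts summed with near-identical copies (95% identity over 200 bases, BLAST+ 2.17.0). The script was checked on simulated counts. Isozyme shares used exon length per gene from GENCODE M21. Members called, those with the smallest p, and Slc2a1, Hk2, Ldha, Hif1a and Vegfa were named by rule. The members and lists were chosen with earlier results of these data known.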

Additional observations from a re-analysis of the deposited data

Results flagged for a closer look

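The difference between ILTCk and conventional cells differed between tumour and thymus for Eno3: the contrast was -3.60 on the log2 scale (edgeR adjusted p = 0.0217), with Eno3 at 8.76 and 4.56 CPM in NK1.1+ ILTCk and 12.7 and 13.0 CPM in PD1+ Tconv, and at 276 and 242 CPM in ILTCkP and 39.4 and 35.8 CPM in CD8SP. It ranged from -4.10 to -3.21 with single libraries left out, and 5 of those 10 fits no longer called it. No group holds enough libraries to test for a library far from the others.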

How the results depend on the processing

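Eno3, Tpi1 and Slc16a3 were called higher in ILTCkP under every alternative run, and Pdk1 lower under every one but that without CD8SP replicate 2. For ILTCkP over CD8SP, 4 members and 689 genes were called. DESeq2 called 10 members and 1997 genes, and no filter on low counts 10 and 2535. With single libraries left out the members called ranged from 3 to 23, the genes called from 592 to 7017 and the members' median from 0.33 to 0.64. The upper counts came without ILTCkP replicate 2 (23 members), then without ILTCkP replicate 1 (13 members), fits in which the spread comes from the CD8SP pair and a lone ILTCkP library is assumed to vary like it. For NK1.1+ ILTCk over PD1+ Tconv no gene was called, against 1269 by DESeq2, 3 by limma-voom and 1249 with no filter, and 0 to 35 with single libraries left out. The members' median then ranged from 0.20 to 0.45. For NK1.1- ILTCk over PD1+ Tconv 708 genes and 1 member were called by DESeq2, and 799 genes and 2 members (Aldoc and Slc2a3) with no filter. The median was 0.35 with upper-quartile scaling and 0.22 to 0.48 with single libraries left out. For NK1.1+ over NK1.1- ILTCk DESeq2 called 57 genes and the unfiltered fit 167, with a median of -0.23 under upper-quartile scaling and -0.22 to 0.044 with single libraries left out. In the contrast between the tables, 1 member of 119 genes was called. RLE scaling called 2 members of 140 genes, upper-quartile scaling 2 of 148 and DESeq2 2 of 897 (Eno3 and Pdk1 each time), no filter 3 of 1139, and the members called were 0 to 1 with single libraries left out. Upper-quartile scaling moved the median of all genes in that contrast to -0.15, against 0.04 with TMM. The ILTCkP minus CD8SP difference in isozyme share, 24.4 percentage points for Eno3, 2.85 for Ldhb and 1.07 for Aldoc by exon length, was 11.1, 1.57 and 1.38 by coding length, and 10.4 for Eno3 and 1.47 for Ldhb without division by length. The sign of 8 of the 31 members tested between ILTCkP and CD8SP, none called by edgeR, turned with single libraries left out: Bnip3 from -0.046 to 1.52, Bnip3l from -0.35 to 0.034, Eno1 from -0.27 to 0.33, Hif1a from -2.53 to 0.087, Hk1 from -0.034 to 0.45, P4ha1 from -0.42 to 0.18, Pdha1 from -0.090 to 0.29 and Pfkm from -0.34 to 0.062. With all libraries kept no sign turned there, while 2 members turned for NK1.1+ ILTCk over PD1+ Tconv, 3 for NK1.1- ILTCk over PD1+ Tconv, 6 between the ILTCk groups and 7 in the contrast between the tables, none of them called by edgeR. The cause of these differences was not tested.

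Groups share replicate numbers, but with 2 pairs and no label saying what a number marks the pairing is a hint from the data only. Deviations of same-numbered libraries correlated at 0.09 across genes in the thymic table and at 0.33 to 0.36 in the tumour table. With the replicate block edgeR called 2212 genes and 10 members for ILTCkP over CD8SP, 755 genes and 0 members for NK1.1+ ILTCk over PD1+ Tconv, and 298 genes and 1 member, Slc2a3 (lower), for NK1.1- ILTCk over PD1+ Tconv. It called 0 genes for NK1.1+ over NK1.1- ILTCk and 1 member, Eno3, in the contrast between tables.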
